A study of Arabidopsis thaliana with 6 samples.

Results

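The genes described here are the core cell cycle machinery of Arabidopsis thaliana (thale cress): the A-, B- and D-type cyclins, the cyclin-dependent kinases (CDKs) CDKA;1 and the CDKB group, the CDK inhibitors KRP1 to KRP7, SIM and SMR1, the mitotic activators CDC20.1 and CDC20.2, the replicative helicase subunits MCM2 to MCM7 and the sliding clamps PCNA1 and PCNA2. They were taken as a list of 49 loci in 8 families; the rule names loci and sets no threshold on their values, but the list was drawn up with earlier results of these data known. Of these, 48 have a row among the 24438 genes of the expression table, and all 48 passed the filter on low values that left 19648 genes in the tests. CYCD7;1 (AT5G02110), a D-type cyclin known from the division of guard mother cells in the leaf epidermis, has no row in the table. By the rule it counts as not detected, and only its promoter was searched.

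RNA was sequenced from roots of wild-type Columbia plants at the vegetative stage, in 3 groups of 2 libraries. The control group had no aluminium treatment named, the nanoparticle group was exposed to aluminium oxide nanoparticles (nAl2O3), and the ion group was exposed to ionic aluminium, which is toxic to growing root tips. The study set the 2 forms of aluminium against each other and against control roots. The labels state neither doses nor exposure times nor numbers of plants. They do not say whether both libraries of a group stem from separate plantings, so each p-value reflects the library-to-library spread alone, and that spread may be technical.

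In plants as in animals, cyclins bind CDKs and set the order of the cell cycle. D-type cyclins with CDKA;1 phosphorylate the retinoblastoma protein RBR1 and so release E2F factors, which switch on the genes for DNA replication; the MCM complex is loaded at origins in G1 and unwinds DNA in S phase, when PCNA holds the polymerase on its template. B-type and A-type cyclins with the CDKB kinases, a group found only in plants and algae, drive G2 and mitosis, and the anaphase-promoting complex with CDC20 destroys mitotic cyclins to end it. KRP and SIAMESE-type inhibitors block the kinases, and in roots the balance between both sides decides when a cell leaves the meristem and passes into the endocycle, in which DNA is replicated without division.

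Levels are in RPKM, the reads of a gene scaled to its length and to the size of the library. Comparisons between libraries depend on this scaling, and results with other scalings are given below. Differences are on the log2(RPKM + 1) scale with their standard error, and a gene was called where its adjusted p from limma, over all 19648 genes, was under 0.05. Library totals recovered from the table ran from 12318429 to 14489392 reads, and the members held from 143 reads (CYCD4;2) to 6834 reads (CDKA;1) over the 6 libraries together. Libraries of a group were unequally alike: the log2 values of the control libraries correlated at r = 0.9409 over genes, those of the ion libraries at 0.9744 and those of the nanoparticle libraries at 0.9893. All 3 comparisons share libraries with each other, so their values are given side by side and are not independent. In such whole-root samples, fewer cells of a type and less RNA per cell cannot be told apart.

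The 2 motifs by which plant cell cycle genes are usually described were looked for first, from 250 bases before to 50 bases after each annotated gene start in TAIR10.1, as RefSeq gives it, on both strands. All 49 members were matched. The E2F core TTCCCGC was present near the start of MCM2, MCM3, MCM5, MCM6, PCNA1 and PCNA2, that is 4 of 6 MCM genes and both PCNA genes, against 1.53% of the 27443 protein-coding genes. It was found in no cyclin, kinase or inhibitor of the list. The longer E2F site TTTCCCGC, which contains the core, was present in 3 of 6 MCM genes (MCM2, MCM5 and MCM6) and in 0.798% of all genes. Other forms of the E2F site were not searched. The windows of 30 bases are shown for the members that held the core. They are written 5′ to 3′ on the strand of the gene, with the core or its reverse complement in capitals.
MCM2 (chr1:16970189-16970218, plus strand): tggcgccaatatTTCCCGCctaatcgacga
MCM3 (chr5:18773751-18773780, minus strand): ccaaaatgacccTTCCCGCcaaaaagggta
MCM5 (chr2:3527501-3527530, minus strand): cggcccatcagtTTCCCGCcacattgttcc
MCM6 (chr5:18010696-18010725, minus strand): ctatactttttaGCGGGAAaatgttagagg
PCNA1 (chr1:2263042-2263071, plus strand): actagcgcattgGCGGGAAccaaatagctt
PCNA2 (chr2:12651744-12651773, minus strand): cgtcacacacagGCGGGAAcaaaaataccc

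The MSA core AACGG, the letters that MYB3R factors bind in mitotic genes, was present at least once in 8 of 9 B-type cyclin promoters and in 24.7% of all genes, and at least 2 times in 7 of 9 B-type cyclins and in 4.89% of all genes. CYCB2;4 was the B-type cyclin without it. The core was present at least once in 3 of 6 A-type cyclins, 1 of 10 D-type cyclins and 1 of 5 kinases. It was also present in 2 of 6 MCM genes and in 5 of 5 histone H3.1 genes outside the members. Among the inhibitors, KRP1 held 7 copies and KRP7 held 5, while SIM and SMR1 held none. One window per gene is shown for 6 of the B-type cyclins, with the core or its reverse complement in capitals. These letters are a description of the sequence, not evidence of binding.
CYCB1;1 (chr4:17624353-17624382, minus strand): aaaaacaatcagaCCGTTggggttcattta
CYCB1;2 (chr5:1861730-1861759, minus strand): aatttaatcatctAACGGcaacagatgaaa
CYCB1;3 (chr3:3627296-3627325, minus strand): aagttcatcatccAACGGctagaagtctaa
CYCB2;1 (chr2:7663957-7663986, plus strand): tccctcatgatccAACGGttatattctaaa
CYCB2;2 (chr4:16901459-16901488, plus strand): tccttcatgatccAACGGtcatcttaatca
CYCB2;3 (chr1:7137878-7137907, minus strand): gtggcgttgatccAACGGctgagatgaact

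Against nanoparticle roots, ion-treated roots had higher transcript levels of most of this machinery: 26 of 48 members rose and 1 fell. Over all tested genes 13.3% rose and 11.9% fell in that comparison. Those that rose were spread over every family, from the mitotic cyclins and CDKB kinases to all 6 MCM subunits and both PCNA genes, and the one that fell was the inhibitor SIM. The median difference of the members was 0.81, beside 0.13 over all genes. With the libraries rescaled by median of ratios, which moved the median of all genes to 0.00, the median of the members was 0.68 and the calls were 18 higher and 1 lower. That rescaling also turned the split of all genes from 2622 higher and 2347 lower to 1948 higher and 2769 lower. The count rests on both libraries of each group: it was 3 when ion replicate 1 was left out, 7 for ion replicate 2, 4 for nanoparticle replicate 1 and 1 for nanoparticle replicate 2, where the lone library is assumed to vary like the others. Over all genes the calls higher were then 1086, 1060, 787 and 589.

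Against control roots, 11 members rose in ion-treated roots and 2 fell, where 12.3% of all genes rose and 10.3% fell. The 11 were CYCB1;3, CYCA1;1, CYCD4;1, CYCD6;1, CDKB1;1, CDKB1;2, KRP7, SMR1, CDC20.1, CDC20.2 and PCNA1, and the 2 were CYCD1;1 and SIM. The median of the members was 0.46, beside 0.06 over all genes. It was 0.19 without control replicate 1, beside 0.027 over all genes, and 0.66 without control replicate 2, beside 0.092. Without ion replicate 1 the median of the members was 0.34 and without ion replicate 2 it was 0.47. Fewer members were called in these fits, and calls over all genes fell as well. More members were called higher without control replicate 2, as were more genes over all. The calls of CYCD1;1 and SIM were lost when any ion or nanoparticle library was left out. With library weights 6 members were higher and 1 lower, where 1534 of 19648 genes were higher and 1370 lower.

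Between nanoparticle and control roots, no member passed in either direction, where 0% of all genes rose and 0% fell; 13 of 48 members and 1307 of 19648 genes had an unadjusted p under 0.05. Leaving out control replicate 1 gave 9 lower members, in a fit that called 2018 genes higher and 1408 lower, and leaving out any other library gave none. The direction of the estimates was mostly down, with a median of -0.31 over the members and -0.03 over all genes. In 23 of 48 members both nanoparticle libraries lay below both control libraries, beside 25.2% of all genes; 1 member, KRP2, lay above in both, beside 20.7%. The group means ran from nanoparticle through control to ion, lowest to highest, in 28 of 48 members, beside 25.4% of all genes.

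**Figure D1:**
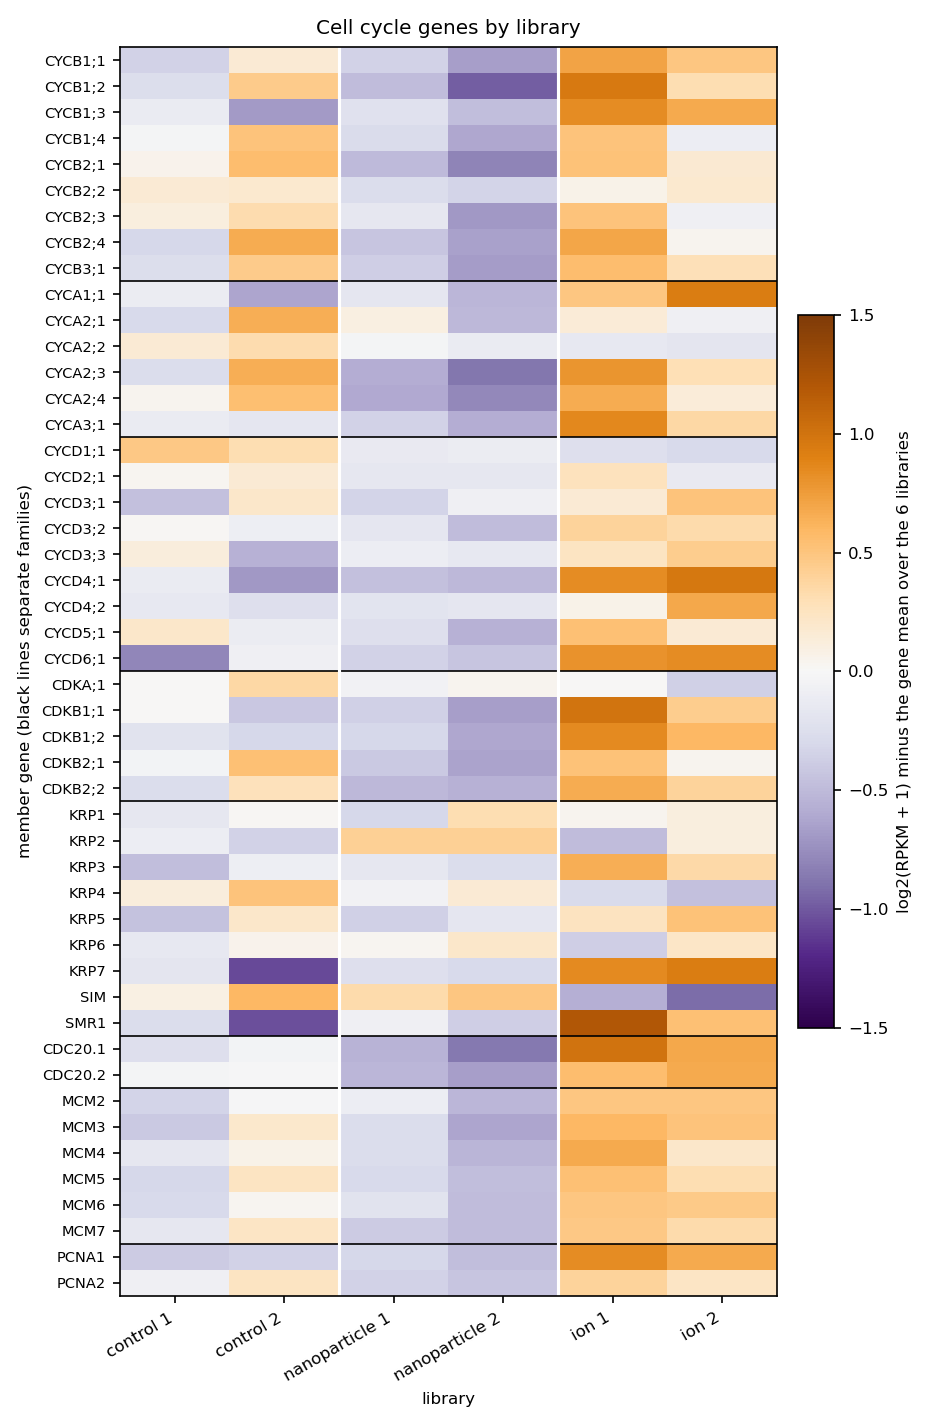
Colour gives log2(RPKM + 1) of each member in each library minus the mean of that gene over the 6 libraries, with families separated by black lines. The ion columns are mostly above the gene mean and the nanoparticle columns mostly below it, SIM runs the other way, and control 2 resembles the ion libraries in many B-type and A2-type cyclins but not in CYCB1;3, CYCA1;1, KRP7 or SMR1.

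The control libraries differed from each other in these genes. In 34 of 48 members the value was higher in control replicate 2, against 10265 of 19648 genes, and the median log2 difference between both control libraries was 0.26 over members and 0.03 over all genes. It was 0.51 over the B-type cyclins. Other genes were lower in control replicate 2 than in replicate 1: EXPA7 was at 2.97 against 14.2 RPKM, COBL9 at 1.63 against 3.82 and CASP1, of the endodermis, at 82.9 against 187, while RHD6 was level at 6.63 and 6.71. XCP1, of the same list as CASP1, was at 82.3 against 88.8 RPKM, CESA7 at 11 against 19.2 and VND7 at 1.44 against 2.84. Of the meristem markers, PLT1 was at 8.31 against 4.65 RPKM, PLT2 at 4.48 against 2.97 and WOX5 at 1.85 against 1.56. SHR was at 25.3 against 24 and SCR at 17.8 against 20.1. Summed lateral root markers were at 6.88 against 13.7 RPKM and summed H3.1 genes at 368 against 629. Whether these differences are linked was not tested. In both ion libraries a member lay above the other 4 libraries in 25 of 48 cases, beside 30.5% of all genes, and below them in 4 (CYCA2;2, CYCD1;1, KRP4 and SIM), beside 22.5%.

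**Figure D2:**
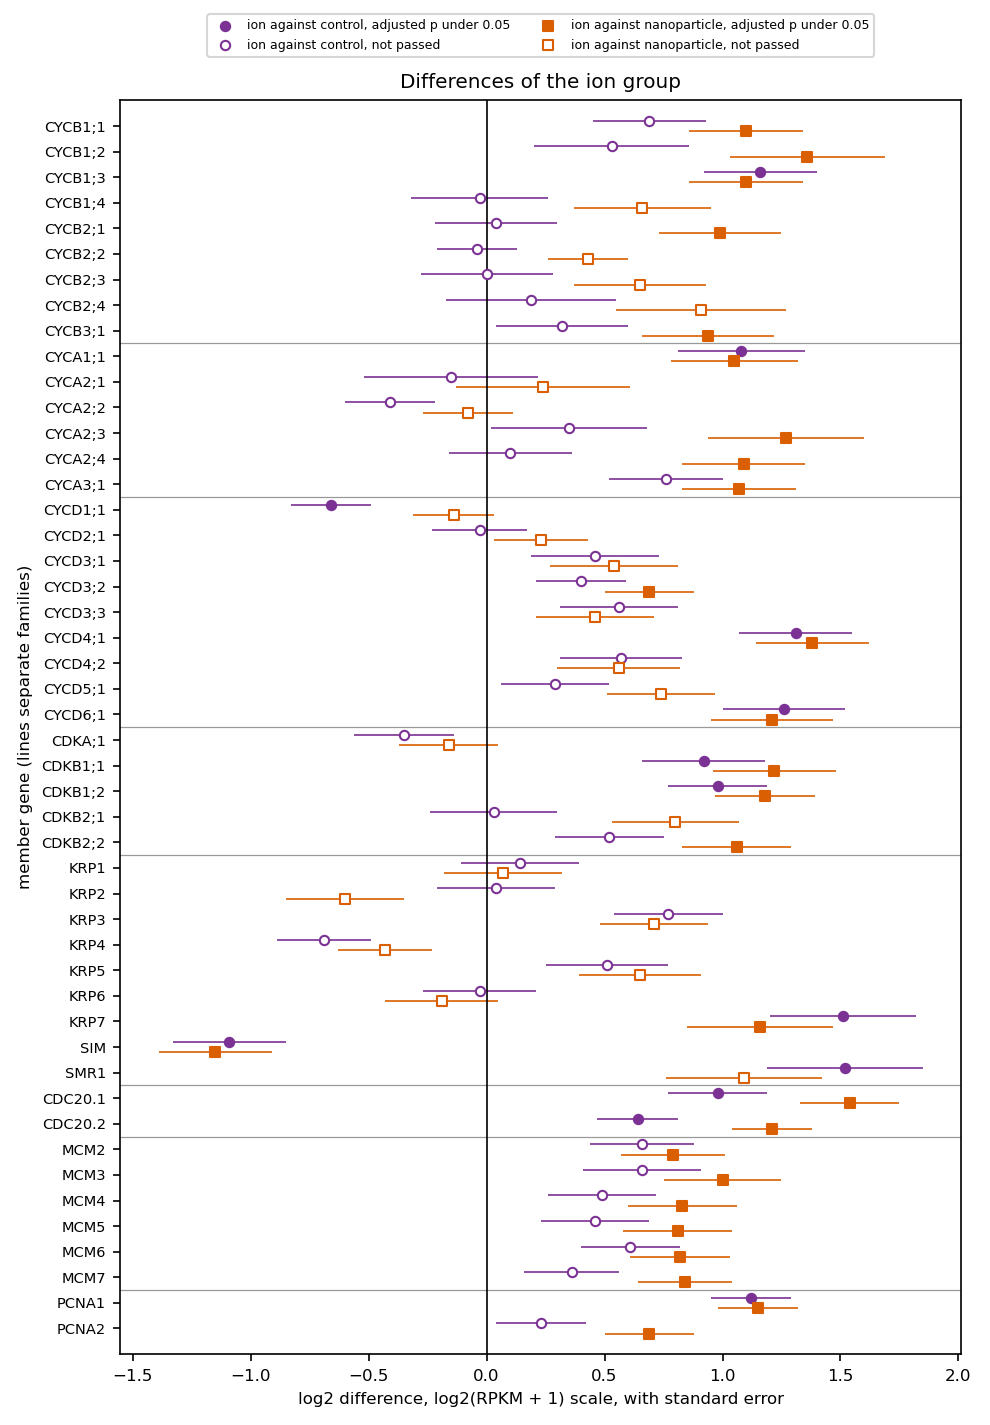
The horizontal axis gives the log2 difference of the ion group from control (circles) and from nanoparticle roots (squares) with its standard error, 1 row per member, filled where the adjusted p was under 0.05. Squares are filled for 27 members and circles for 13, and SIM alone is filled on the negative side in both comparisons.

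In the B-type cyclins, which drive entry into mitosis, the nanoparticle libraries were mostly at the bottom. Both nanoparticle libraries were below both control libraries in 8 of 9 genes, beside 25.2% of all genes. They were below both ion libraries in all 9, an order whose share over all genes was not counted. The summed level of the family was 126 and 179 RPKM in control, 106 and 82 in nanoparticle and 219 and 158 in ion roots, so control and ion overlapped. CYCB1;1, CYCB1;2, CYCB1;3, CYCB2;1 and CYCB3;1 rose in ion against nanoparticle roots and 4 did not pass. Of the family only CYCB1;3 was called against control.

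CYCB1;2, the most abundant of the family, was at 23.7 and 39.2 RPKM in control, 19.9 and 13.9 in nanoparticle and 55.7 and 35.3 in ion roots. Ion and control overlapped, while both ion values were above both nanoparticle values. It was higher by 1.36 ± 0.33 in ion against nanoparticle roots (adjusted p = 0.026) and its difference from control was 0.53 ± 0.33 (adjusted p = 0.287).

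CYCB1;3 (chr3:3625286-3627273, minus strand) was at 9.65 and 6.21 RPKM in control, 9 and 7.37 in nanoparticle and 19.7 and 17.5 in ion roots. Both ion libraries stood above all 4 others, and the control and nanoparticle libraries were interleaved. The differences were 1.16 ± 0.24 from control (adjusted p = 0.0169) and 1.10 ± 0.24 from nanoparticle roots (adjusted p = 0.0191). CYCB1;3 thus did not follow control replicate 2, where 8 of 9 B-type cyclins were higher than in control replicate 1 and CYCB1;3 was not.

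CYCB1;1, whose promoter is widely used to mark cells in G2 and mitosis, was at 8.07 and 11.9 RPKM in control, 8.07 and 6.27 in nanoparticle and 17.8 and 15.1 in ion roots. The lower control and the higher nanoparticle library were level, and the ion libraries stood above all others. It rose by 1.10 ± 0.24 against nanoparticle roots (adjusted p = 0.0191), and against control the difference of 0.69 ± 0.24 did not pass (adjusted p = 0.0862).

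CYCB2;1 rose by 0.99 ± 0.26 against nanoparticle roots (adjusted p = 0.0322) and was at 9.78 and 9.97 RPKM on average in control and ion roots, with 4.50 in nanoparticle roots. CYCB3;1 passed narrowly at 0.94 ± 0.28 (adjusted p = 0.0496), a call that was lost with the other pseudocount, with both rescalings and without the filter. CYCB1;4, CYCB2;2, CYCB2;3 and CYCB2;4 did not pass, with differences from 0.43 to 0.91 in ion against nanoparticle roots and from -0.04 to 0.19 against control. In none of these 4 did the ion libraries separate from the control libraries.

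**Figure D3:**
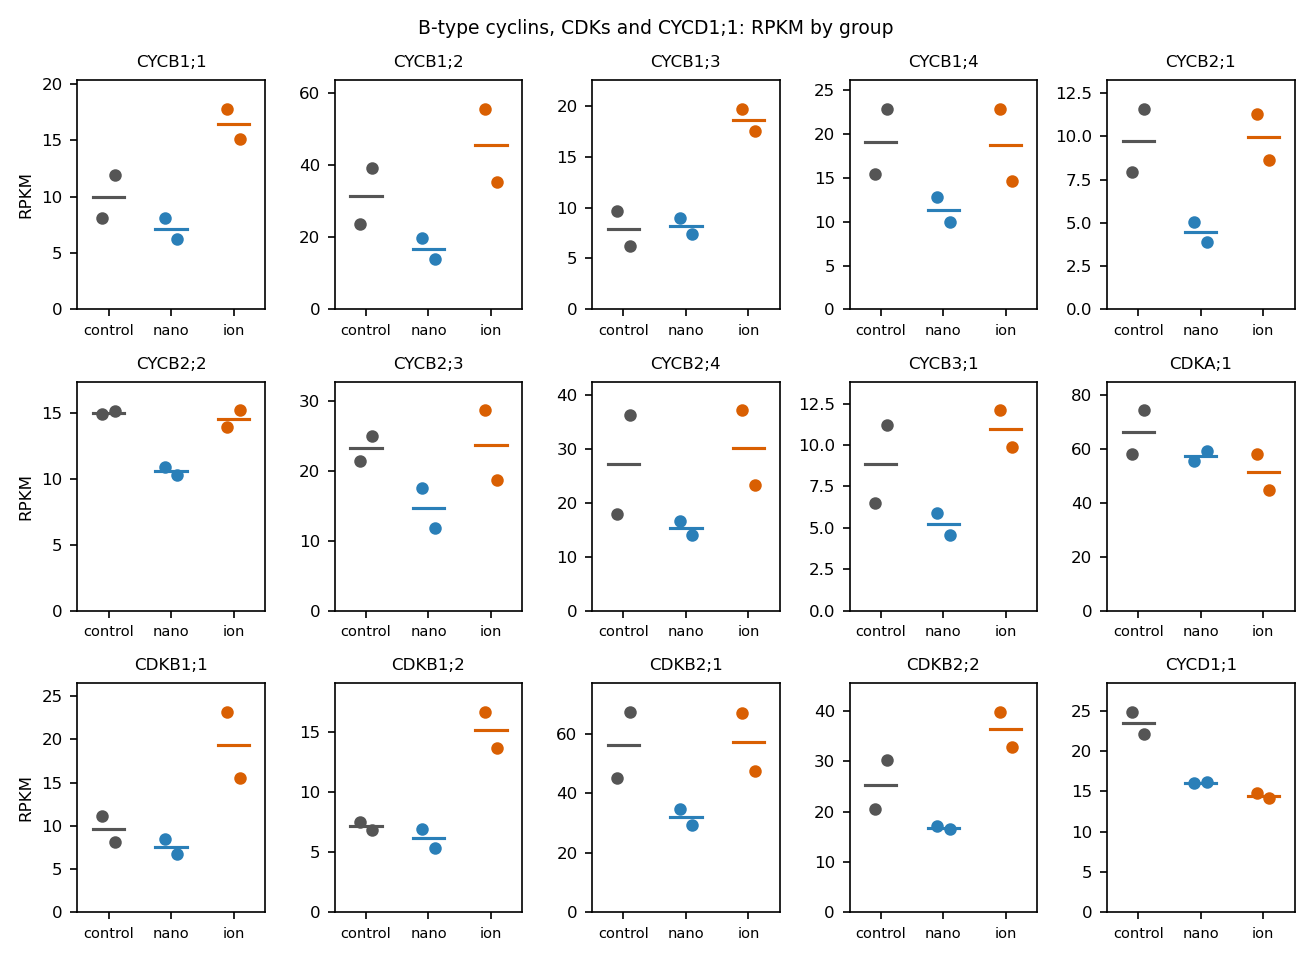
Each panel plots RPKM from 0 for 1 gene, with 1 point per library and a bar at the group mean, in control, nanoparticle (nano) and ion roots. The nanoparticle points lie lowest in most B-type cyclins and in CDKB2;1 and CDKB2;2, the ion points lie apart above the rest in CYCB1;3, CDKB1;1 and CDKB1;2, and CYCD1;1 has its highest points in control.

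Among the A-type cyclins, which act in S phase and up to mitosis, 4 of 6 rose in ion against nanoparticle roots (CYCA1;1, CYCA2;3, CYCA2;4 and CYCA3;1) and CYCA1;1 also rose against control. CYCA1;1 was at 5.37 and 3.48 RPKM in control, 5.15 and 3.81 in nanoparticle and 8.68 and 12.2 in ion roots. The ion libraries were above all others and the other 4 were interleaved. It was higher by 1.08 ± 0.27 than control (adjusted p = 0.0328) and by 1.05 ± 0.27 than nanoparticle roots (adjusted p = 0.0333), and the first call was lost under 9 of 15 alternatives, leaving out control replicate 2 among them (adjusted p up to 0.169).

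CYCA2;3, which with CDKB1;1 holds cells back from the endocycle, was at 20.7 and 40.0 RPKM in control, 16.4 and 13.2 in nanoparticle and 44.0 and 31.0 in ion roots. Control spanned nearly the whole range between the other groups. It rose by 1.27 ± 0.33 against nanoparticle roots (adjusted p = 0.0339) and differed from control by 0.35 ± 0.33 (adjusted p = 0.481). CYCA2;3 overlaps the annotated gene AT1G15580 on the other strand, and how reads were assigned to strands is not given in the sources used here.

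CYCA2;4 rose by 1.09 ± 0.26 against nanoparticle roots (adjusted p = 0.0244) with group means of 30.8 in control, 14.9 in nanoparticle and 33.3 RPKM in ion roots. CYCA3;1, of a group active in S phase, was at 4.91 and 4.72 RPKM in control, 4.07 and 3.32 in nanoparticle and 10.7 and 7.23 in ion roots; it rose by 1.07 ± 0.24 against nanoparticle roots (adjusted p = 0.0195), and its difference of 0.76 ± 0.24 from control did not pass (adjusted p = 0.0619). The ion libraries of CYCA3;1 stood above all others, those of CYCA2;4 did not. CYCA2;1, at 0.81 to 3.06 RPKM, and CYCA2;2, at 3.66 to 5.62 RPKM, passed in no comparison.

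The D-type cyclins, which start the cycle in answer to hormones and sugar, were mixed. CYCD4;1 and CYCD6;1 rose in ion roots against both other groups, CYCD3;2 rose against nanoparticle roots, and CYCD1;1 fell against control. The summed level was 116 and 119 RPKM in control, 100 and 99.1 in nanoparticle and 146 and 152 in ion roots. These sums did not overlap between any 2 groups, an order whose share over all genes was not counted. The control sums were close, unlike in the B-type cyclins, but single genes differed between the control libraries in opposite directions. CYCD3;1 was at 21.9 and 35.3 RPKM there and CYCD3;3 at 16.6 and 10.

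CYCD4;1 (chr5:26141470-26144020, minus strand), known from the pericycle and lateral root formation, was at 3.92 and 2.30 RPKM in control, 2.91 and 2.76 in nanoparticle and 8.56 and 9.49 in ion roots. Both ion values were more than any of the other 4, which were interleaved. It was higher by 1.31 ± 0.24 than control (adjusted p = 0.0115), or 2.89-fold in reads per library total, and by 1.38 ± 0.24 than nanoparticle roots (adjusted p = 0.00882).

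CYCD6;1 (chr4:1431844-1433861, minus strand), which the root patterning factors SHORT-ROOT and SCARECROW switch on for the formative division of the ground tissue, was at 3.95 and 7.15 RPKM in control, 5.74 and 5.38 in nanoparticle and 14.0 and 14.4 in ion roots. Both ion libraries stood above all others. The differences were 1.26 ± 0.26 from control (adjusted p = 0.0171) and 1.21 ± 0.26 from nanoparticle roots (adjusted p = 0.0182). SHORT-ROOT and SCARECROW themselves did not pass: SHR had group means of 24.7, 23.0 and 33.6 RPKM and SCR 19.0, 18.9 and 22.5 in control, nanoparticle and ion roots. CYCD6;1 overlaps AT4G03260 on the other strand.

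CYCD1;1, an early cyclin of germinating seeds, went the other way: 24.9 and 22.1 RPKM in control, 16.0 and 16.2 in nanoparticle and 14.8 and 14.2 in ion roots. Both aluminium groups lay below control without overlap. The difference of -0.66 ± 0.17 between ion and control passed (adjusted p = 0.0337), and that of -0.52 ± 0.17 between nanoparticle and control did not (adjusted p = 0.595). Ion and nanoparticle roots differed by -0.14 ± 0.17 (adjusted p = 0.58). The call against control was lost under 8 of 15 alternatives (adjusted p up to 0.136), among them leaving out any ion or nanoparticle library.

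CYCD3;2 rose by 0.69 ± 0.19 in ion against nanoparticle roots (adjusted p = 0.037), a call that both rescalings ended. CYCD3;1, the most abundant D-type cyclin and a target of cytokinin, was at 21.9 and 35.3 RPKM in control, 23.9 and 28.9 in nanoparticle and 34.2 and 43.7 in ion roots and did not pass (0.46 ± 0.27 against control, adjusted p = 0.253). CYCD2;1, CYCD3;3, CYCD4;2 and CYCD5;1 did not pass either, with differences from -0.03 to 0.57 against control and from 0.23 to 0.74 against nanoparticle roots. CYCD4;2 was the least abundant, at 1.17 to 3.11 RPKM. CYCD3;1 overlaps the annotated gene AT4G34150 on the same strand, so some of its reads could belong to that neighbour.

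The kinases split by class. CDKA;1, the main CDK of plants, which is needed at both G1 and G2, did not pass in any comparison: it was at 58.1 and 74.4 RPKM in control, 55.6 and 59.4 in nanoparticle and 58.2 and 45.0 in ion roots, and all 3 groups overlapped. Its difference was -0.35 ± 0.21 between ion and control (adjusted p = 0.267) and -0.16 ± 0.21 between ion and nanoparticle roots (adjusted p = 0.603). Of the 4 CDKB genes, whose transcripts peak in G2 and mitosis, 3 rose against nanoparticle roots and 2 against control.

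CDKB1;1 was at 11.2 and 8.13 RPKM in control, 8.49 and 6.72 in nanoparticle and 23.2 and 15.5 in ion roots. CDKB1;2 was at 7.50 and 6.87, 6.91 and 5.39, and 16.7 and 13.7 in the same order. In both, the ion libraries stood apart above control and nanoparticle libraries, which overlapped. CDKB1;1 rose by 0.92 ± 0.26 against control (adjusted p = 0.0483) and by 1.22 ± 0.26 against nanoparticle roots (adjusted p = 0.0179). CDKB1;2 rose by 0.98 ± 0.21 (adjusted p = 0.0176) and 1.18 ± 0.21 (adjusted p = 0.00857). The call of CDKB1;1 against control was lost under 12 of 15 alternatives, among them both rescalings and leaving out control replicate 2. It was therefore marginal. Its direction was the same in all 15, which adds no support, as all used these libraries and both ion values lay above the others.

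CDKB2;2 rose by 1.06 ± 0.23 against nanoparticle roots (adjusted p = 0.0175) and was at 20.5 and 30.2 RPKM in control, 17.2 and 16.5 in nanoparticle and 39.9 and 32.9 in ion roots. CDKB2;1 was the most abundant CDKB, at 45.0 and 67.4, 34.8 and 29.3, and 66.9 and 47.6 RPKM, and did not pass, at 0.80 ± 0.27 (adjusted p = 0.0684). Both differ from the CDKB1 pair in that the nanoparticle libraries lay below both control libraries. The 2 CDKB1 genes share at most 41 identical bases in a row, and all 4 CDKB genes overlap an annotated gene on the other strand that is also in the table, so some of their reads could belong to a neighbour.

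The CDK inhibitors did not move as a family. Of 9, KRP7 and SMR1 rose against control, SIM fell against control and against nanoparticle roots, KRP7 rose against nanoparticle roots, and the others did not pass. The family median was 0.14 in ion against control and 0.07 in ion against nanoparticle roots, and the latter turned to -0.05 with median-of-ratios scaling. What changed was which inhibitor was abundant.

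SIM (SIAMESE; AT5G04470, chr5:1266625-1267416, minus strand), the founding inhibitor of its family, which makes leaf hairs endoreduplicate, was the most abundant inhibitor in control and nanoparticle roots. It was at 91.7 and 131 RPKM in control, 109 and 121 in nanoparticle and 57.8 and 45.1 in ion roots. Both ion libraries were below all 4 others, and control and nanoparticle libraries were interleaved. It fell by 1.09 on the log2 scale against control, with a standard error of 0.24 (adjusted p = 0.0207), and by 1.15 against nanoparticle roots, also with 0.24 (adjusted p = 0.0158). In reads per library total, ion roots held 0.46 times the control level. The call against control was lost when only these 2 groups were fitted or when any ion or nanoparticle library was left out (adjusted p up to 0.129 over 15 alternatives); without either control library it held.

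SMR1 (also LGO; AT3G10525, chr3:3281306-3282131, minus strand), the SIAMESE relative that sets giant cells in the sepal, was at 21.2 and 12 RPKM in control, 24.3 and 19.7 in nanoparticle and 60.4 and 37.6 in ion roots. Here both ion libraries were above all 4 others. It rose by 1.52 ± 0.33 against control (adjusted p = 0.0191), 2.88-fold in reads per library total, and held under 14 of 15 alternatives, all but leaving out ion replicate 1 (adjusted p = 0.124). Against nanoparticle roots the difference of 1.09 ± 0.33 just missed (adjusted p = 0.052).

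The opposite shifts brought SIM and SMR1 to similar levels. SIM was 4.33 and 11.0 times as abundant as SMR1 in control, 4.47 and 6.18 times in nanoparticle, and 0.958 and 1.20 times in ion roots. SIM made up 46.2% and 52.8% of the summed inhibitor RPKM in control, 49.4% and 50.4% in nanoparticle and 28.4% and 25.5% in ion roots, and SMR1 made up 10.7% and 4.82%, 11.1% and 8.16%, and 29.7% and 21.3%. The summed inhibitor level was 198 and 248, 220 and 241, and 203 and 177 RPKM in the same order; control overlapped each of the other groups, and both ion libraries lay below both nanoparticle libraries. Each overlaps an annotated gene on the other strand (AT5G04475 and AT3G10527) that has no row in the table.

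KRP7 (chr1:18365336-18366744, minus strand) was the KRP that changed: 2.71 and 1.02 RPKM in control, 2.57 and 2.43 in nanoparticle and 6.58 and 7.03 in ion roots, from 31 and 11, 28 and 27, and 64 and 79 reads. It rose by 1.51 ± 0.31 against control (adjusted p = 0.0152) and by 1.16 ± 0.31 against nanoparticle roots (adjusted p = 0.0351), the latter lost with the other pseudocount, without the filter and with median-of-ratios scaling. Both ion libraries stood above the rest.

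KRP4, the most abundant KRP, which in the shoot meristem ties cell size to the start of S phase, missed on the lower side, at -0.69 ± 0.20 against control (adjusted p = 0.0517), with 42.0 and 55.1 RPKM in control, 37.1 and 43.0 in nanoparticle and 31.3 and 27.6 in ion roots. KRP3 missed on the upper side, at 0.77 ± 0.23 (adjusted p = 0.0535), with 3.07 and 4.36, 4.07 and 3.73, and 7.88 and 6.19 RPKM. In both, the ion libraries did not overlap the others. KRP4 overlaps AT2G32720 on the other strand.

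KRP2, which restrains lateral root initiation, was the one member above both control libraries in both nanoparticle libraries, at 7.33 and 6.04 RPKM in control, 10.9 and 10.9 in nanoparticle and 5.39 and 8.67 in ion roots. The nanoparticle difference of 0.63 ± 0.25 did not pass (adjusted p = 0.595). KRP5, known from endoreduplication and elongation of root cells, was at 6.98 and 11.5, 7.48 and 8.71, and 12 and 14.6 RPKM and did not pass (0.51 ± 0.26 against control, adjusted p = 0.198). KRP1, at 6.18 to 10.0 RPKM, and KRP6, at 14.0 to 21.5 RPKM, had differences between -0.19 and 0.16 in the 3 comparisons and did not pass.

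**Figure D4:**
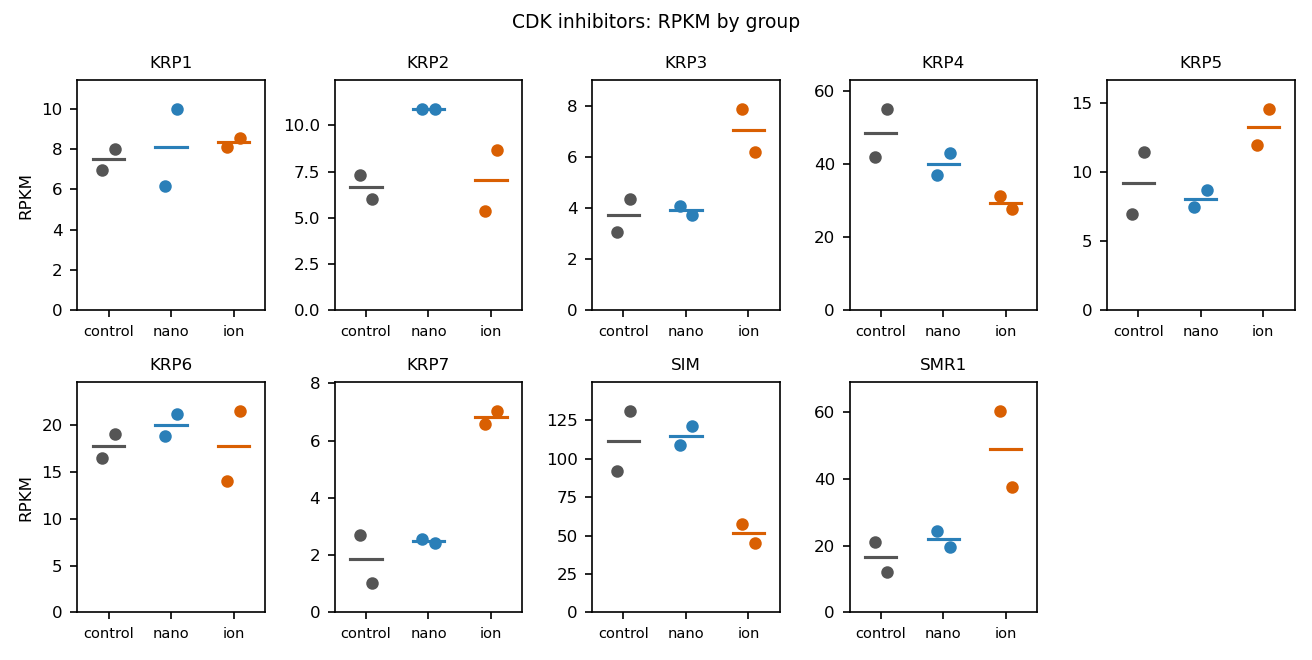
Each panel plots RPKM from 0 for 1 CDK inhibitor, with 1 point per library and a bar at the group mean, in control, nanoparticle (nano) and ion roots. SIM falls and SMR1 and KRP7 rise in the ion libraries without overlap, KRP2 is highest in the nanoparticle libraries, and KRP6 overlaps between all groups.

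CDC20.1 and CDC20.2, which activate the anaphase-promoting complex in mitosis, rose in ion roots against both other groups. CDC20.1 (chr4:16044169-16046937, minus strand) was at 35.3 and 40.8 RPKM in control, 28.5 and 22.7 in nanoparticle and 84.9 and 68.2 in ion roots. CDC20.2 (chr4:16041006-16043549, minus strand) was at 28.9 and 29.2, 20.3 and 18.2, and 43.8 and 47.6 RPKM. In both genes the 3 groups were separated, with nanoparticle lowest and ion highest.

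CDC20.1 rose by 1.54 ± 0.21 against nanoparticle roots (adjusted p = 0.00321), the largest difference of any member in that comparison, and kept its call under all 14 alternatives (adjusted p up to 0.049). Against control it rose by 0.98 ± 0.21 (adjusted p = 0.0172). CDC20.2 rose by 1.21 ± 0.17 (adjusted p = 0.00353) and by 0.64 ± 0.17 (adjusted p = 0.0362), the latter lost under 9 of 15 alternatives. The transcripts of these neighbours share a run of 314 identical bases, and reads from it may have been split between them or dropped, so their separate levels are uncertain.

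The 6 MCM genes moved together. All rose in ion against nanoparticle roots, by 0.79 to 1.0, and none passed against control, where the estimates lay between 0.36 and 0.66. In all 6 genes both ion libraries were above all 4 other libraries, beside 30.5% of all genes. The summed level was 60.4 and 82.4 RPKM in control, 60.7 and 49.8 in nanoparticle and 110 and 97.9 in ion roots.

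MCM7, the most abundant MCM over the 6 libraries, was at 14.2 and 19.0 RPKM in control, 12 and 11.1 in nanoparticle and 22.6 and 20.5 in ion roots. MCM5 was at 12.5 and 18.8, 12.7 and 11.1, and 23.4 and 19.8 RPKM. MCM3 was at 8.77 and 13.8, 9.77 and 7.37, and 18.5 and 17.5 RPKM. The 3 genes share the same order of libraries in part: ion replicate 1 was highest in each, nanoparticle replicate 2 was lowest in each, and control replicate 2 came next after the ion libraries. MCM7 overlaps AT4G02050 on the other strand and the tRNA gene AT4G02055 on its own strand.

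MCM4 was at 10.8 and 12.7 RPKM in control, 10.0 and 8.12 in nanoparticle and 20 and 14.2 in ion roots. MCM2 was at 8.04 and 10.3, 9.67 and 6.97, and 15 and 15 RPKM. MCM6, the least abundant, was at 6.03 and 7.79, 6.48 and 5.17, and 11.1 and 10.9 RPKM. Within each library the highest of the 6 was 1.87 to 2.45 times the lowest, so the subunits, which form a ring with one copy of each, had transcript levels of a similar size.

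Against nanoparticle roots MCM3 rose by 1.0 ± 0.25 (adjusted p = 0.0303), MCM6 by 0.82 ± 0.21 (adjusted p = 0.0313) and MCM7 by 0.84 ± 0.20 (adjusted p = 0.0248). MCM4 rose by 0.83 ± 0.23 (adjusted p = 0.0405), MCM2 by 0.79 ± 0.22 (adjusted p = 0.042) and MCM5 by 0.81 ± 0.23 (adjusted p = 0.0469). With no filter on low values MCM7 was the only one still called, and with both rescalings MCM3, MCM6 and MCM7 were. Against control the adjusted p ran from 0.076 for MCM2 to 0.23 for MCM7. The 2 genes without the letters TTCCCGC in the window, MCM4 and MCM7, differed from nanoparticle roots within the range of the other 4. Against control the 0.36 of MCM7 was below theirs. Other forms of the E2F site were not searched, so MCM4 and MCM7 may still hold one.

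**Figure D5:**
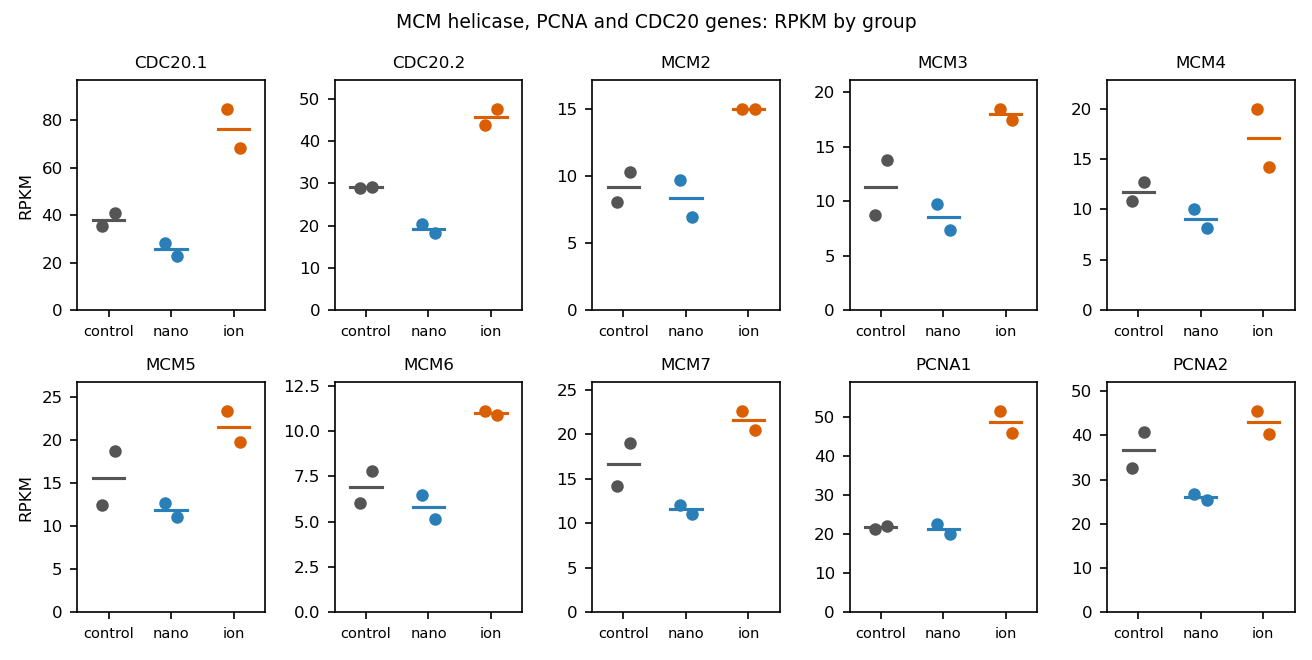
Each panel plots RPKM from 0 for 1 gene, with 1 point per library and a bar at the group mean, in control, nanoparticle (nano) and ion roots. The ion points lie above all others in both CDC20 genes, all 6 MCM genes and PCNA1, and in PCNA2 the lower ion point lies just under the higher control point.

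The PCNA genes encode the same clamp and differed in how they behaved. PCNA1 (chr1:2263037-2264553, plus strand) was at 21.5 and 22.2 RPKM in control, 22.7 and 20.2 in nanoparticle and 51.6 and 46.0 in ion roots. The 4 control and nanoparticle libraries lay within a narrow range and both ion libraries were far above it. PCNA1 rose by 1.12 ± 0.17 against control (adjusted p = 0.00548), 2.23-fold in reads per library total, and kept that call under all 15 alternatives (adjusted p up to 0.0447). Against nanoparticle roots it rose by 1.15 ± 0.17 (adjusted p = 0.0046).

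PCNA2 (chr2:12649906-12651753, minus strand) was at 32.6 and 40.8 RPKM in control, 26.8 and 25.4 in nanoparticle and 45.5 and 40.4 in ion roots. Ion and control overlapped and the nanoparticle libraries were lowest. It rose by 0.69 ± 0.19 against nanoparticle roots (adjusted p = 0.0368) and differed from control by 0.23 ± 0.19 (adjusted p = 0.408). The call was lost with TPM values and with median-of-ratios scaling. PCNA1 was at 0.659 and 0.544 times the level of PCNA2 in control, 0.847 and 0.795 times in nanoparticle and 1.13 and 1.14 times in ion roots. They share at most 41 identical bases in a row, and PCNA2 overlaps AT2G29560 on the other strand.

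Other genes of the pathway, in 6 lists of 89 genes, were read beside the members. Of 30 tested genes of origins and the replication fork, 9 rose against nanoparticle roots and 5 against control, and none fell, with medians of 0.60 and 0.33. Over all genes 13.3% and 12.3% rose in these comparisons, so the count against control is near the background. TSO2, a small subunit of ribonucleotide reductase, which makes deoxynucleotides, was at 25.6 and 10.8 RPKM in control, 26.8 and 19.8 in nanoparticle and 74.6 and 56.2 in ion roots, and rose by 1.89 ± 0.39 against control (adjusted p = 0.0158). The origin recognition subunits ORC6 and ORC2 rose by 1.10 ± 0.22 and 1.04 ± 0.26 against control (adjusted p = 0.0138 and 0.0311), and CDT1A and CDT1B, which load the MCM ring, rose by 1.18 ± 0.30 and 1.06 ± 0.23 against nanoparticle roots (adjusted p = 0.0305 and 0.018). In the window searched, 14 of the 31 listed genes held the E2F core.

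Of 19 genes of mitosis and cytokinesis, 12 rose against nanoparticle roots, where 13.3% of all genes rose. Against control 3 rose, near the 12.3% of all genes, and none fell in either comparison. In all 19 both ion libraries were above both nanoparticle libraries, an order whose share over all genes was not counted. HINKEL, a kinesin of the forming cell plate, rose by 1.41 ± 0.28 (adjusted p = 0.013) and PANS1, which protects sister chromatid cohesion, by 1.35 ± 0.27 (adjusted p = 0.0145) against nanoparticle roots. PANS1, CENH3, the centromeric histone, and BUB3.1, of the spindle checkpoint, rose against control by 1.28 ± 0.27, 1.17 ± 0.27 and 0.91 ± 0.21 (adjusted p = 0.0184, 0.0245 and 0.0225). The count of 12 was 3 with median-of-ratios scaling, where 1948 of all genes rose and not 2622.

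Of 21 transcription factors and kinases that act on the members, 3 rose against nanoparticle roots and 2 against control, shares near the 13.3% and 12.3% of all genes. MYB3R1 and MYB3R4, of the factors that bind the MSA core, rose by 0.85 ± 0.18 and 0.93 ± 0.21 against nanoparticle roots (adjusted p = 0.0158 and 0.0215). CDKD;1, a CDK-activating kinase, rose by 1.04 ± 0.21 (adjusted p = 0.014) in the same comparison. RBR1 had group means of 17.8, 13.7 and 20.2 RPKM in control, nanoparticle and ion roots and did not pass (0.52 ± 0.22 in ion against nanoparticle roots, adjusted p = 0.132), nor did E2FA (0.59 ± 0.24, adjusted p = 0.12), E2FB (0.42 ± 0.31, adjusted p = 0.359), E2FC (0.57 ± 0.20, adjusted p = 0.0799) or the inhibitory kinase WEE1 (0.90 ± 0.30, adjusted p = 0.067).

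Of 6 coactivators and inhibitors of the anaphase-promoting complex, CCS52B, active around mitosis, rose against both groups, by 1.35 ± 0.23 against nanoparticle roots (adjusted p = 0.00771) and 0.87 ± 0.23 against control (adjusted p = 0.0366). CCS52A1 and CCS52A2, which promote the endocycle and root meristem exit, did not pass: CCS52A1 had means of 8.56, 9.60 and 8.86 RPKM and CCS52A2 5.64, 7.32 and 8.54 RPKM in control, nanoparticle and ion roots. The call of CCS52B against control was lost with TPM values and without the filter.

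Of the 6 SIAMESE-related genes tested outside the members, SMR5 and AT1G10690 rose against control and against nanoparticle roots, and the other 4 did not pass. SMR5, which reactive oxygen species and DNA damage are known to induce, was at 3.07 and 0.649 RPKM in control, 3.54 and 5.99 in nanoparticle and 12.6 and 18.4 in ion roots, and rose by 2.65 ± 0.45 against control (adjusted p = 0.00847) and 1.53 ± 0.45 against nanoparticle roots (adjusted p = 0.0493). The SMR5 values rest on few reads: 10 and 2 in control, 11 and 19 in nanoparticle and 35 and 59 in ion roots. AT1G10690 rose by 1.62 ± 0.30 and 1.08 ± 0.30 (adjusted p = 0.0108 and 0.0392). SMR7 was at 4.56 and 0.723, 7.18 and 6.79, and 7.23 and 5.79 RPKM and did not pass (1.27 ± 0.50 against control, adjusted p = 0.111). Its control values rest on 20 and 3 reads. Both calls against nanoparticle roots were lost without the filter and with median-of-ratios scaling.

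The 5 histone H3.1 genes, transcribed in S phase to package new DNA, had summed levels of 629 and 368 RPKM in control, 528 and 445 in nanoparticle and 1361 and 990 in ion roots. In all 5 the ion libraries were above all control and nanoparticle libraries of that gene, beside 30.5% of all genes. Against control and against nanoparticle roots alike, 3 of 5 rose. These genes are near-identical copies, so the split of reads between them is uncertain.

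Marker genes of root tissues differed between the groups along with these values. All 5 markers of the root meristem and stem cell niche (PLT1, PLT2, WOX5, SHR and SCR) were higher in both ion libraries than in the libraries of either other group. Over all genes 30.5% showed this order. The summed level of these markers was 53.3 and 57.8 RPKM in control, 49.6 and 50.1 in nanoparticle and 77.2 and 75.5 in ion roots. Against nanoparticle roots 3 of 5 rose, and WOX5, of the quiescent centre, rose against control by 1.09 ± 0.21 (adjusted p = 0.0135). Of the 3 root hair markers, EXPA7 and COBL9 fell and RHD6 rose against nanoparticle roots, and EXPA7 fell against control. Of the 4 markers of endodermis and xylem, XCP1 and CESA7 fell against both groups. EXPA7, of elongating root hairs, was at 14.2 and 2.97, 19.8 and 20.3, and 0.629 and 0.340 RPKM, and XCP1, a protease of xylem vessels, at 88.8 and 82.3, 68.2 and 68.9, and 22.8 and 19.7 RPKM in control, nanoparticle and ion roots. Of the 5 shoot markers, 3 fell against control and 2 against nanoparticle roots, and their sum was at 108 and 130, 50.2 and 151, and 23.8 and 24.7 RPKM, summed root cap markers at 5.10 to 8.18 RPKM in all libraries, and summed lateral root markers at 6.88 to 15.6 RPKM. Of the 4 lateral root markers PUCHI, of the young primordium, rose against control by 1.51 ± 0.26 (adjusted p = 0.00926), from a mean of 0.698 to 3.75 RPKM. No listed marker was at 0 in both libraries of a group. The part of tissue makeup in the differences of the cell cycle genes was not tested.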

How the data were processed

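RNA-seq of 6 root libraries was analysed from the RPKM table that the authors deposited; the unit was taken from the deposited table's own name and from its values. TAIR10, HTSeq 0.6.0 and TopHat2 2.0.12 are named, without roles, in the submitters' processing notes; strand handling is not given in the sources used here. Libraries were grouped by title; for nanoparticle replicate 2 the source label reads nAl2O4. The members and gene lists were chosen with earlier results of these data known.

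Values were tested as log2(RPKM + 1), which understates changes of low genes, with limma 3.58.1 in R 4.3.3 (trended moderated test, 3 groups of 2 libraries in 1 fit), for the 19648 genes (80.4%) at 1 RPKM or more in at least 2 libraries, with Benjamini-Hochberg adjustment over all of them. The ratios of low values between libraries gave each library's total. With those totals each of the 24438 genes (100%) had a whole gene length that gave whole reads within 1e-06. An annotated length was found for 96.9% of the genes, but the recovered lengths were not compared with it. The recovered reads were used for read counts, fold changes per library total and an added voom fit. Scripts were tested on simulated data first. Named genes were every member called in any comparison, the most abundant of each family, all inhibitors, MCM and PCNA genes and any undetected member; others were summarised. For the lists, up to 4 called genes with the largest change could be named, plus RBR1, E2FA, E2FB, E2FC, WEE1, CCS52A1, CCS52A2, SMR5 and SMR7. A count of 0 reads allows up to 3 reads, 0.207 to 0.244 RPKM for a gene of 1 kb, counting error only. Promoters and coordinates are from RefSeq's TAIR10.1; the labels name TAIR10. Alternatives were another pseudocount (0.1), no filter, TPM, median-of-ratios scaling, fits of 2 groups, library weights, a replicate block and leaving out each library.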

Additional observations from a re-analysis of the deposited data

How the results depend on the processing

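No direction of a member called in a comparison was reversed under any alternative run. All alternatives used the same libraries, so this is not independent support. Against control, the main counts were 11 higher and 2 lower members. Library weights gave 6 and 1, and fitting only the groups compared gave 0 lower. Over all genes, weights gave 1534 higher and 1370 lower, and fitting only the groups compared gave 1325 lower. Against nanoparticle roots, the main counts were 26 and 1. No filter gave 16 higher members and library weights gave 2 lower, where 2239 and 3496 of all genes were so called. Leaving out 1 library gave 1 to 18 higher and 0 to 3 lower against control, 1 to 34 and 0 to 2 against nanoparticle roots, and 0 to 9 lower and 0 higher for nanoparticle against control. The voom fit on recovered reads, added after seeing the data, kept all 13 and all 27 calls.

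In the lists, calls against nanoparticle roots were 9 replication genes (17 with only the groups compared, 19 with weights), 3 factors and kinases (9 and 12), 12 mitosis genes (3 with no filter, 6 with TPM, 3 with median of ratios), 1 coactivator (2 with only the groups compared or weights), 2 SIAMESE-related genes (1 with pseudocount 0.1, TPM or voom, 0 with no filter or median of ratios) and 3 H3.1 genes (5 with only the groups compared or weights). Against control they were 5 replication genes (3 with pseudocount 0.1 or voom, 2 with only the groups compared or weights), 2 factors and kinases (1 with pseudocount 0.1 or voom, 0 with no filter, TPM, median of ratios, only the groups compared or weights), 1 coactivator (0 with no filter, TPM, only the groups compared or weights) and 3 H3.1 genes (1 with no filter, only the groups compared or weights). Leaving out 1 library gave ranges, in the order replication, factors, mitosis, coactivators, SIAMESE-related and H3.1, of 0 to 17, 0 to 9, 0 to 15, 0 to 2, 0 to 2 and 0 to 5 against nanoparticle roots, and 0 to 7, 0 to 3, 0 to 4, 0 to 1, 0 to 4 and 0 to 4 against control. Over all genes, 2622 rose against nanoparticle roots in the main fit, 4669 with only the groups compared and 4781 with weights. The number was 2371 with pseudocount 0.1, 2239 with no filter, 2228 with TPM and 1948 with median of ratios. Against control 2418 genes rose in the main fit, 1433 with only the groups compared and 1534 with weights. The number was 2225 with pseudocount 0.1, 2095 with no filter, 2016 with TPM and 2075 with median of ratios. The cause of these differences was not tested.

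Deviations of same-numbered libraries correlated at -0.054, -0.164 and 0.075 over genes. With 2 libraries a group this cannot show whether the libraries were prepared in pairs, and the labels do not say. With the replicate block, 9 members were higher and 1 lower against control, and 17 higher and 1 lower against nanoparticle roots; the calls of MCM2, MCM3, MCM4, MCM5, MCM6 and PCNA2 were among those lost (adjusted p = 0.0558 to 0.0802), and that of MCM7 was kept. List calls under the block were 3 replication genes, 0 factors and kinases and 0 coactivators against control, and 5 replication, 6 mitosis and 0 SIAMESE-related genes against nanoparticle roots. With numbers crossed in the ion group, a pairing added after seeing the data, the block gave 9 higher and 2 lower members, 3 replication genes and 0 factors and kinases against control. Over all genes 2029 rose against control and 2036 against nanoparticle roots with the replicate block. With the crossed numbers 2452 rose against control. With 2 libraries a group, the spread rests on few values.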
